A study of Homo sapiens with 30 samples.

Results

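Matrix metalloproteinases and their tissue inhibitors were followed in BEAS-2B cells, an immortalized line of human bronchial epithelium, after exposure to whole birch pollen. The 10 genes were MMP1, MMP2, MMP3, MMP9, MMP10, MMP13, MMP14, TIMP1, TIMP2 and TIMP3. They were chosen by gene name and not by a rule on measured values, though earlier results of these data were known. On the array 11 of the 58201 probes other than controls carry them. The cells stood at the air-liquid interface, with medium below and air above. In the pollen groups they received birch pollen from a sedimentation chamber loaded with 10 mg, and in the air groups they went through the same handling under a mesh that kept the pollen out. Incubation ended at 10 min or 55 min, or later, at 2h25 min, at 6h50 min or at 24 h, when the cells were lysed. With 3 arrays per exposure and time there were 30 arrays, each of 1 culture. The study repeated its exposures on different days, so the 3 arrays of a group stand for separate cultures of 1 line. A cell line without cilia or mucus is a limited model of the airway.

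Matrix metalloproteinases (MMPs) are zinc-dependent proteases that cut collagens, laminins and other proteins of the extracellular matrix. They are made as inactive proenzymes, which other proteases open. Tissue inhibitors of metalloproteinases (TIMPs) bind the active site of the mature enzymes and block it. In the airway epithelium MMPs take part in the repair of wounds and in the remodelling of the basement membrane, and several of them are known targets of inflammatory signalling through AP-1 and NF-kB.

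Promoters are shown for the 2 genes of the family that changed with time and have an entry in the sequence table used, MMP14 and TIMP1. That of MMP10 is shown because it matched the pattern searched for the AP-1 element. Each holds 250 bases before and 50 bases after the transcription start, 5′ to 3′, from RefSeq on GRCh38.p14. Capitals mark matches to TGANTCA, the pattern searched for the AP-1 element. Its reverse complement is the same pattern, so that both strands are covered. Other forms of the element were not searched.
MMP10 promoter, chr11:102780579-102780878, minus strand: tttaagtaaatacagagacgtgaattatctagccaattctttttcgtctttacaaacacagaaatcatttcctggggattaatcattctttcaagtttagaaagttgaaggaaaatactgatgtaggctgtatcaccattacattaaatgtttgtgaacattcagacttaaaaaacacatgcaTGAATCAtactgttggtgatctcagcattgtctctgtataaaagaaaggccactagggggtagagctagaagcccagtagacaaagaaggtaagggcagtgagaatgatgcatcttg
MMP14 promoter, chr14:22836335-22836634, plus strand: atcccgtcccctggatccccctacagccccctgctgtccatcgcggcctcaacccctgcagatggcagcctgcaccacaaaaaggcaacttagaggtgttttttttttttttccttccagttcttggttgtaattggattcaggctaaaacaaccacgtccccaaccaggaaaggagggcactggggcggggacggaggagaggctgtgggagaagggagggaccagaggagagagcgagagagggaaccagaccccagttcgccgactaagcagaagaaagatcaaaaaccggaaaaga
TIMP1 promoter, chrX:47582186-47582485, plus strand: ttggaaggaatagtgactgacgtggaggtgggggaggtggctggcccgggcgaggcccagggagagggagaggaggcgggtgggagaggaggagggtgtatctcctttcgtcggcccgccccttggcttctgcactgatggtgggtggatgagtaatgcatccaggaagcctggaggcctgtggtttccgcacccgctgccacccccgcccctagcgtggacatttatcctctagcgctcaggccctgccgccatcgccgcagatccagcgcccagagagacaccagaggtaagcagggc
MMP10 held this pattern once, as TGAATCA, with its first base at position -67 from the start. No match was present in the windows of MMP14, TIMP1 and TIMP3. Of all 35116 promoters in the table, 2707 (7.71%) held it. The table had an entry for 4 of the 10 genes. MMP1, MMP2, MMP3, MMP9, MMP13 and TIMP2 had none. A match of letters describes the window and is no evidence of binding.

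Values are log2 intensities relative to the 75th percentile of each array, over the probes shared by both array designs in the series, so 0 is the level of that percentile. They compare 1 probe between arrays and not 1 gene with another. Between 44.7% and 59.3% of probes were well above background on an array. Markers of cell types were read on the arrays, 10 of them epithelial. Of these 10, 9 (KRT5, KRT7, KRT8, KRT14, KRT17, KRT18, KRT19, EPCAM and CDH1) were clearly detected on 30 of 30 arrays, and TP63 on 21. The endothelial marker PECAM1 and the fibroblast markers COL3A1 and LUM were above background on 0 arrays. Of the other markers of these cells and of leukocytes, COL1A1, DCN, PDGFRB, VIM, PTPRC, CD14 and CDH5 were above it on 30 arrays, ITGAM and VWF on 28 and CD3E on 17. Since most markers of other cell types were also detected, detection does not test the epithelial identity of the cells. Each array holds the RNA of a whole culture, so fewer cells making a transcript and less of it per cell cannot be told apart.

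Of the 10 genes, 6 were tested, because in at least 1 group all 3 arrays read them well above background. These were the gelatinases MMP2 and MMP9, the membrane-type protease MMP14, and the inhibitors TIMP1, TIMP2 and TIMP3. All 30 arrays read MMP9, MMP14 and the 3 TIMPs at that level, and 28 read MMP2. MMP1, MMP10 and MMP13 reached that level on 0 of 30 arrays and MMP3 on 4, so that these proteases have a bound and no measured level in most groups. The tested values are shown by array, exposure and time.

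**Figure D1:**
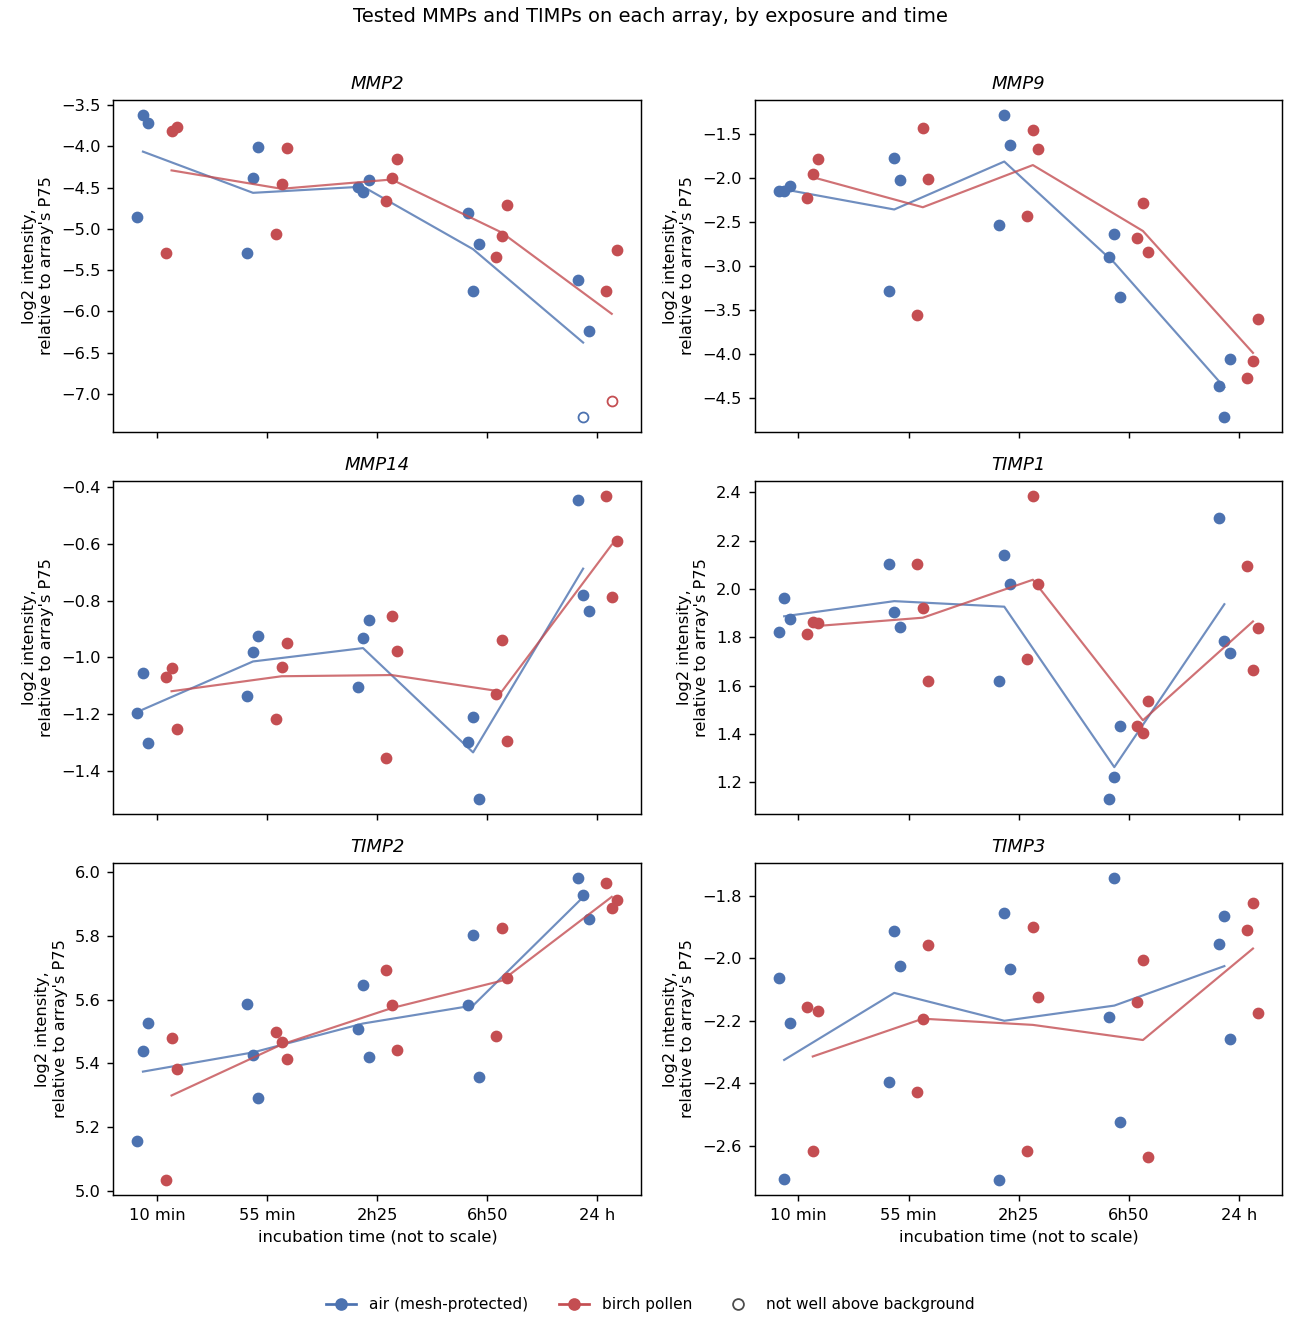
Log2 intensity relative to the array's 75th percentile (P75, y axis) of the 6 tested genes at 5 incubation times (x axis). Each point is 1 array, lines join the group means, blue is air, red is pollen, and open points were not well above background. MMP2 and MMP9 were lowest at 24 h, MMP14 and TIMP2 highest at 24 h, and TIMP1 lowest at 6h50 min, in both exposures.

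The first comparison asks whether pollen changed the family against air at the same time. No tested member was called at any of the 5 times by limma, at an adjusted p under 0.05 and at least 1.1-fold. The count of members was 0 of 6 at each time, 0 of them had an unadjusted p under 0.05, and every other setting tried gave 0 as well. Over all 32099 tested probes, 0% were called at 10 min, 0.00312% at 55 min, 0.0343% at 2h25 min, 0.0436% at 6h50 min and 0.00312% at 24 h, so calls were rare in the whole table. The median difference of the 6 genes ran from -0.02 at 10 min to 0.20 at 6h50 min, beside medians over all tested probes of 0.01 and 0.00.

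MMP9, gelatinase B, which cuts denatured collagen and basement membrane collagen, had the widest gap between the exposures among the 6 tested genes. At 24 h its values were -4.36, -4.72 and -4.06 in air and -4.28, -4.08 and -3.61 in pollen. Pollen was the higher array in 3 of 3 same-numbered pairs, and the groups overlapped. The difference was 0.39 with a 95% interval from -0.50 to 1.28 and an adjusted p of 1.00 in limma. At 6h50 min it was 0.36 (-0.53 to 1.25, adjusted p = 0.98), again higher in 3 of 3 pairs with overlapping groups. Same-numbered arrays at 6h50 min hardly deviated together (r from -0.03 to 0.23), so a count of pairs says little there.

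MMP14 cuts collagen at the cell surface and activates the proenzyme of MMP2. At 6h50 min its values were -1.30, -1.21 and -1.50 in air and -1.13, -0.94 and -1.29 in pollen. Pollen was higher in 3 of 3 same-numbered pairs, with the limit just given for pairs at that time. The groups overlapped, and the difference of 0.21 had an interval from -0.07 to 0.50 and an adjusted p of 0.85 in limma. For TIMP1, an inhibitor that also binds the proenzyme of MMP9, the values at that time were 1.13, 1.22 and 1.43 in air and 1.43, 1.40 and 1.54 in pollen. Its difference was 0.19 (-0.16 to 0.55, adjusted p = 0.94).

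The intervals give the range of pollen effects that these arrays leave possible in a fit without pairing. Same-numbered pollen and air arrays deviated together at 10 min, 2h25 min and 24 h. The intervals thus hold spread that such arrays shared, and could be narrower in a paired fit. They were narrowest for TIMP2, which binds the proenzyme of MMP2 and takes part in its activation, and reached from -0.34 at 10 min to 0.34 at 6h50 min. For MMP2, gelatinase A, they reached from -1.24 at 10 min to 1.36 at 24 h, so a log2 difference of -1 lies inside the interval at 10 min, and one of 1 inside that at 24 h. TIMP3, the inhibitor that stays bound to the matrix, differed by between -0.11 and 0.06 over the 5 times. The pollen effect at each later time was also set against that at 10 min, and 0 of 6 genes were called at any time, with 0 at an unadjusted p under 0.05. The background of these comparisons was 0% of tested probes at 55 min, 0.00312% at 2h25 min, 0% at 6h50 min and 0% at 24 h.

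**Figure D2:**
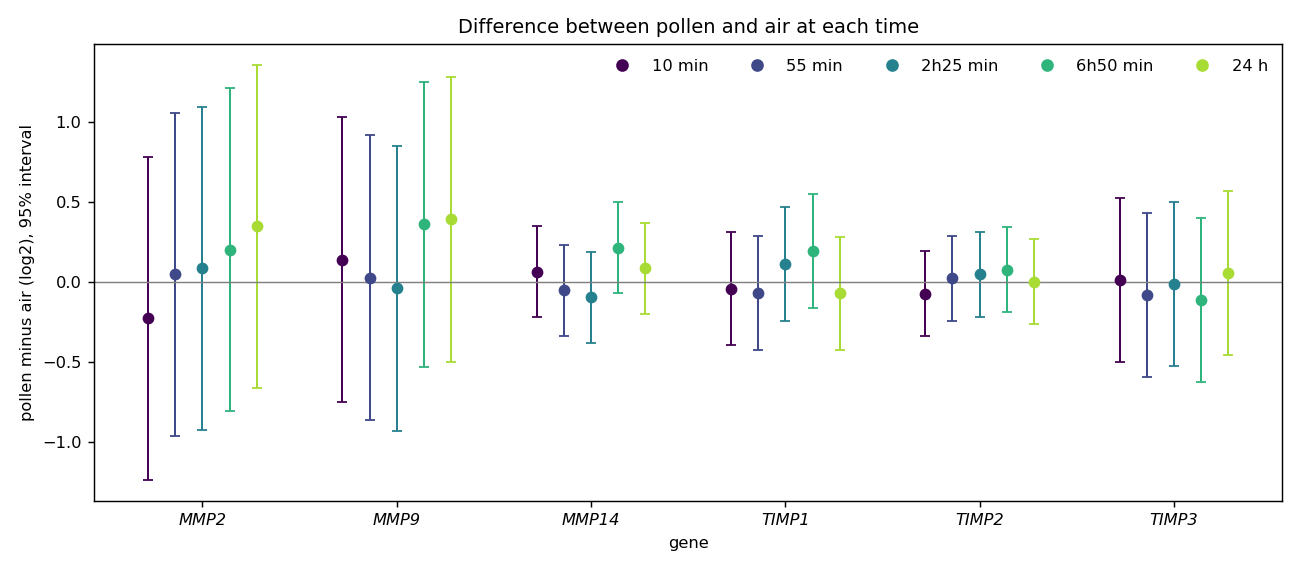
Difference of the group means, pollen minus air, in log2 units (y axis) for each tested gene (x axis) at the 5 times (colours). Points are differences from limma and bars their 95% intervals, n = 3 arrays per group. All bars cross 0, those of TIMP2 are the shortest, and those of MMP2 and MMP9 reach past 1.

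The second comparison follows each gene over time within an exposure, against the 10 min arrays. These comparisons share the 10 min arrays of their exposure, so they are not independent of each other, and the 2 exposures are given side by side. At 24 h the family split by gene. MMP2 and MMP9 fell and MMP14 and TIMP2 rose in both exposures, which is 4 of 6 genes called, while TIMP1 and TIMP3 did not pass the test. Over all tested probes 37.5% were called at 24 h in air, 17.5% higher and 20% lower, and 35.3% in pollen, 15.8% higher and 19.5% lower. At 6h50 min, 1 of 6 was called in air and 1 of 6 in pollen. Over all tested probes 38.4% were called at that time in air, 13.1% higher and 25.3% lower, and 42.9% in pollen, 14.6% higher and 28.3% lower. At 55 min and 2h25 min, 0 of 6 were called in both exposures, with 0.187% and 0.171% of tested probes in air and 0.841% and 2.07% in pollen. The number with an unadjusted p under 0.05 at these times was 0 in air, and in pollen 0 at 55 min and 1, TIMP2, at 2h25 min.

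MMP9 had values of -2.15, -2.15 and -2.09 on the 10 min air arrays and of -2.22, -1.96 and -1.79 on the 10 min pollen arrays. All 6 arrays at 24 h, given above, lay below all 6 at 10 min. The log2 change was -2.25 in air (SE 0.43, limma adjusted p = 0.000273), a 4.76-fold lower intensity. In pollen the change was -2.0 (SE 0.43, adjusted p = 0.0011), or 3.99-fold lower. At 6h50 min the values lay between -3.36 and -2.63 in air and between -2.84 and -2.29 in pollen, with changes of -0.83 (adjusted p = 0.13) and -0.61 (adjusted p = 0.25). At 55 min the values were -3.28, -1.77 and -2.02 in air and -3.56, -1.43 and -2.01 in pollen. Replicate 1 was the low array of both exposures at that time and at 2h25 min, where it read -2.54 in air and -2.43 in pollen beside -1.67 to -1.28 on the other arrays.

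MMP2 values at 10 min were -4.86, -3.62 and -3.72 in air and -5.29, -3.82 and -3.76 in pollen. At 24 h they were -5.61, -7.28 and -6.24 in air and -5.75, -7.08 and -5.25 in pollen. In air the groups did not overlap. In pollen the highest 24 h array, replicate 3, lay just above the lowest 10 min array, replicate 1. The change was -2.31 in air (SE 0.49, limma adjusted p = 0.000721), 4.96-fold lower, and -1.74 in pollen (SE 0.49, adjusted p = 0.00833), 3.33-fold lower. Replicate 2 at 24 h was not well above background in either exposure. Without that array the pollen change was -1.21 (adjusted p = 0.066) and no longer called. At 6h50 min MMP2 stood at -4.80, -5.76 and -5.18 in air, a change of -1.18 (adjusted p = 0.059, and 0.041 with a replicate block). A second probe named MMP2 lies 116847 bases away on the same chromosome, for another transcript, and was above background on 0 of 29 arrays.

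MMP14 values at 10 min were -1.20, -1.05 and -1.30 in air and -1.07, -1.04 and -1.25 in pollen. At 24 h they were -0.45, -0.78 and -0.84 in air and -0.43, -0.79 and -0.59 in pollen. All 6 arrays at 24 h lay above all 6 at 10 min. The rise was 0.50 in air (SE 0.14, limma adjusted p = 0.00675), 1.41-fold, and 0.52 in pollen (SE 0.14, adjusted p = 0.00585), 1.43-fold. Without air replicate 1 at 24 h the rise in air was 0.38 (adjusted p = 0.059). With the slide as a block it was 0.18 in air (adjusted p = 0.82) and 0.20 in pollen (adjusted p = 0.80).

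TIMP2 read 5.16, 5.44 and 5.53 in air and 5.04, 5.48 and 5.38 in pollen at 10 min. At 24 h it read 5.98, 5.93 and 5.85 in air and 5.96, 5.89 and 5.91 in pollen, and all 6 arrays lay above all 6 at 10 min. The rise was 0.55 in air (SE 0.13, limma adjusted p = 0.00184), 1.46-fold, and 0.62 in pollen (SE 0.13, adjusted p = 0.00074), 1.54-fold. At 6h50 min the pollen values of 5.48, 5.82 and 5.67 gave a rise of 0.36 (adjusted p = 0.0285), and the lowest of them was level with the highest at 10 min. In air the change at that time was 0.21 (adjusted p = 0.20). The call in pollen was lost in 9 of the other settings, among them without pollen replicate 1 at 10 min (0.23, adjusted p = 0.18), replicate 2 at 6h50 min (0.28, adjusted p = 0.14) or replicate 3 at 6h50 min (0.35, adjusted p = 0.060).

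TIMP1 stood apart in its timing. At 10 min it read 1.82, 1.96 and 1.88 in air and 1.81, 1.86 and 1.86 in pollen, and at 6h50 min 1.13, 1.22 and 1.43 in air. The change in air was -0.62 (SE 0.17, limma adjusted p = 0.0072), 1.54-fold lower, and the groups did not overlap. With the percentile taken over all probes of an array it was -0.49 (adjusted p = 0.12) and the call was lost. In pollen the 6h50 min arrays, given above, also lay below all 10 min arrays, with a change of -0.39 (adjusted p = 0.0704) that was not called here but was in 5 of the other settings. The difference between the 2 changes was 0.24 (-0.27 to 0.74, adjusted p = 1.00). At 24 h TIMP1 was 0.05 (-0.31 to 0.41) above 10 min in air and 0.02 (-0.33 to 0.38) in pollen.

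TIMP3 lay between -2.71 and -1.74 on all arrays, with air and pollen values mixed at every time. Its largest change was 0.35 at 24 h in pollen (interval -0.17 to 0.86, limma adjusted p = 0.29), with 0.30 in air (-0.21 to 0.81, adjusted p = 0.36). The arrays at 24 h, from -2.26 to -1.82, overlapped those at 10 min, from -2.71 to -2.06.

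**Figure D3:**
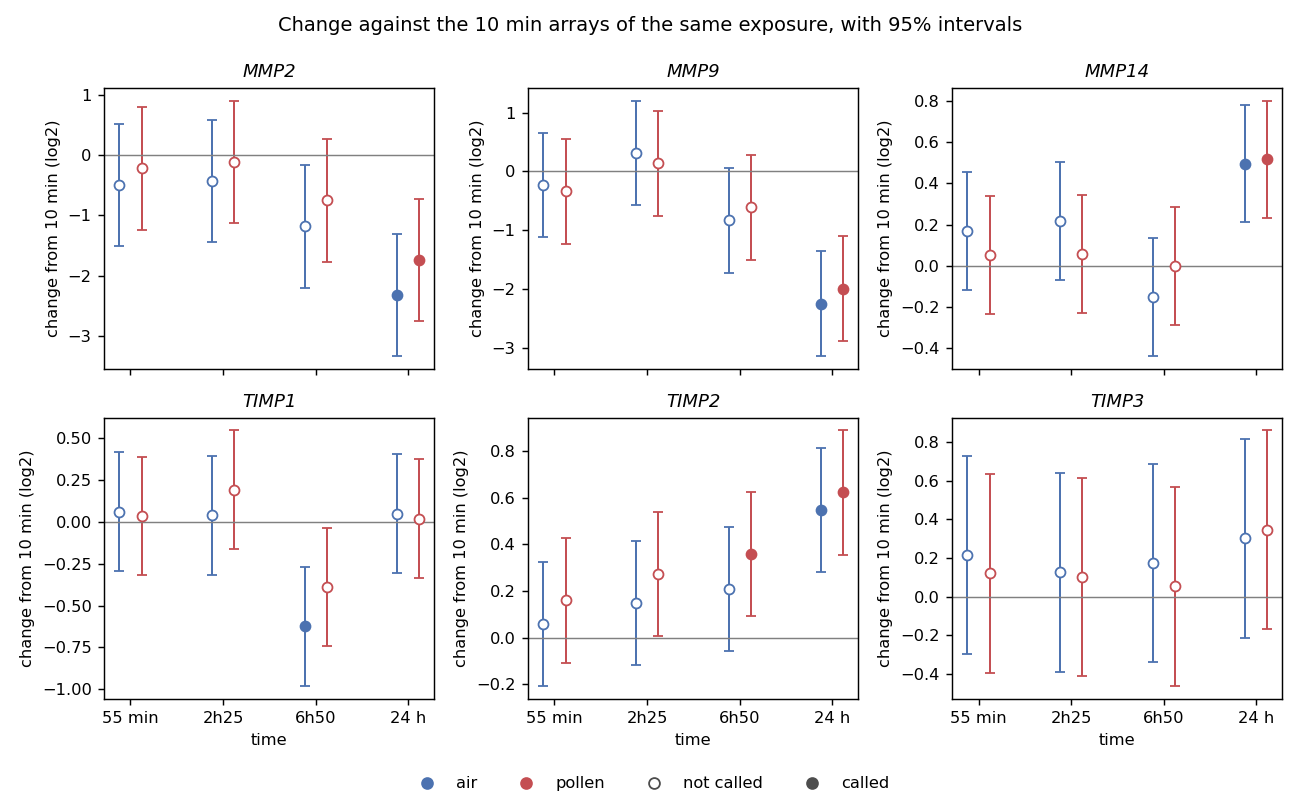
Change of each tested gene against the 10 min arrays of the same exposure, in log2 units (y axis), at the later times (x axis), air in blue and pollen in red. Points are limma estimates with 95% intervals, n = 3 arrays per group, and filled points were called. The filled points are the 24 h values of MMP2, MMP9, MMP14 and TIMP2 in both exposures, TIMP1 at 6h50 min in air and TIMP2 at 6h50 min in pollen.

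The slides touch these changes. All 10 min arrays lay on 1 slide and all 24 h arrays on another. Of the other times, only air replicate 1 at 55 min lay on the slide of the 10 min arrays, so each 24 h value with the slide as a block is linked through that single array. Of its group it was the lowest array for MMP9 (-3.28), MMP2 (-5.30) and MMP14 (-1.14) and the highest for TIMP2 (5.58). With the slide as a block the 24 h change of MMP9 was -3.92 in air (adjusted p = 0.00175) and -3.66 in pollen (adjusted p = 0.00444), and that of TIMP2 was 0.95 (adjusted p = 0.0416) and 1.02 (adjusted p = 0.0421). MMP2 moved to -3.65 in air (adjusted p = 0.0368) and to -3.07 in pollen (adjusted p = 0.10), no longer called. All 6h50 min arrays lay on a slide that held no other time, so time and slide cannot be told apart there.

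At 6h50 min the whole table also shifted. The median over all tested probes was -0.17 against 10 min in both exposures, and 0.02 in both after quantile normalization. Of the probes called in air, 4199 were higher and 8123 lower, against 5608 higher and 4589 lower after quantile normalization. In pollen the numbers were 4691 and 9070, against 6085 and 5095. The change of TIMP1 in air and of TIMP2 in pollen thus stand beside a median of -0.17. The 75th percentile of intensity lay between 578 and 1151 on the 6h50 min arrays and between 1044 and 2111 on the 10 min arrays, and its part in these changes was not tested.

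Stromelysin 1, MMP3, which cuts matrix proteins and activates other proMMPs, was the 1 untested member that reached a level well above background, on 4 of 30 arrays, at -7.06 in air replicate 3 at 55 min, at -6.47 in air replicate 2 at 2h25 min, and at -6.81 and -5.30 in pollen replicates 1 and 2 at 2h25 min. The remaining arrays at 2h25 min read -8.77 and -7.87 in air and -6.97 in pollen. At 10 min pollen arrays read -8.96, -9.03 and -9.24, with 0 of 3 above background. The 2h25 min pollen arrays, of which 2 of 3 measured the probe, were at least 1.57-fold brighter than the 10 min pollen arrays, taking the lowest signal well above background as the level of the latter. This bound takes the mean of all 3 arrays, replicate 3 included, and rests on replicate 2, since without that array it was 1.09-fold. It also compares arrays on different slides, which it does not take into account. No fold is given for pollen against air at 2h25 min, since 1 of 3 air arrays was above background.

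**Figure D4:**
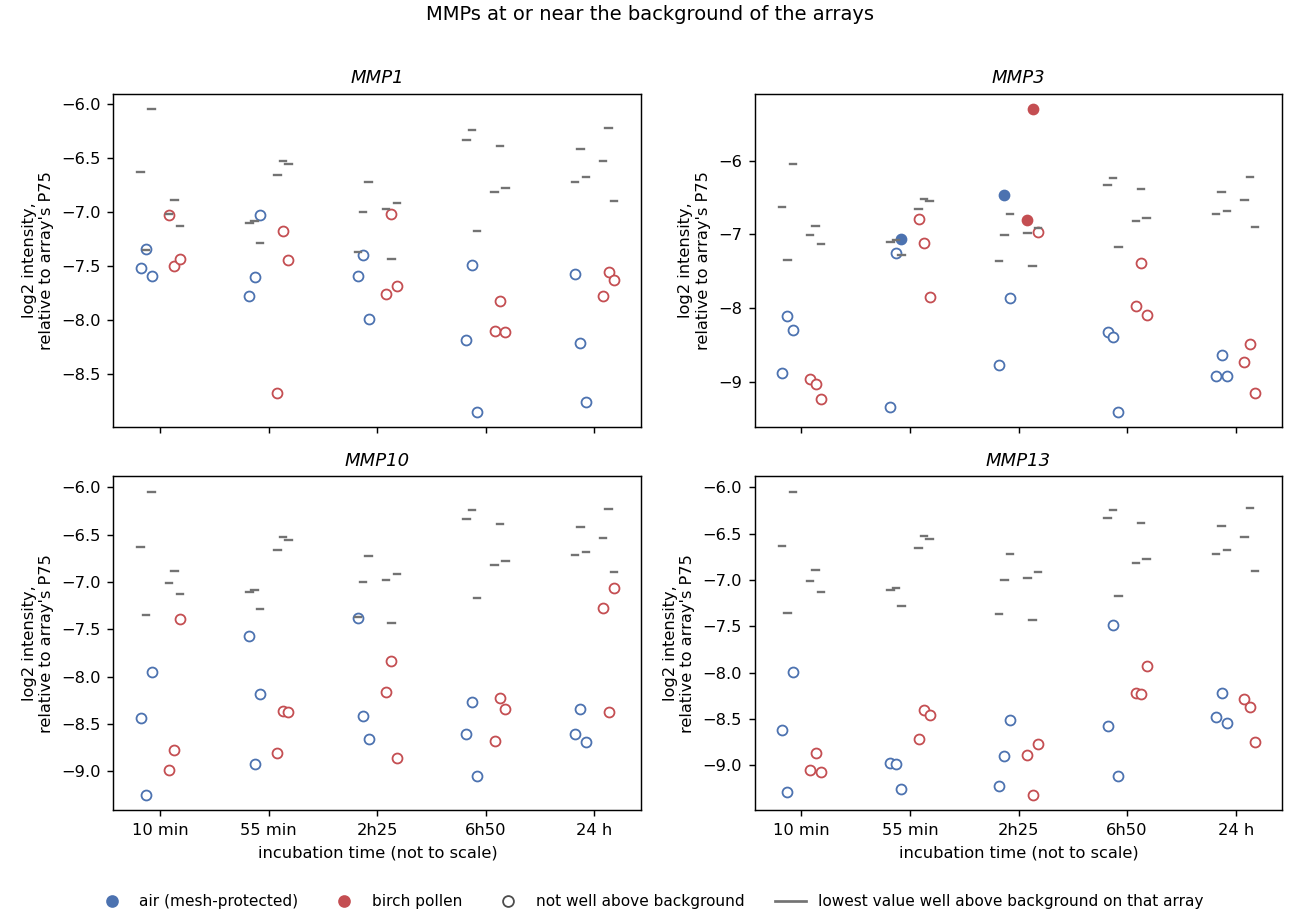
Log2 intensity relative to the array's 75th percentile (P75, y axis) of MMP1, MMP3, MMP10 and MMP13 at 5 incubation times (x axis). Each point is 1 array, filled where the probe was well above background, and grey ticks are the lowest value well above background on that array. Filled points are seen for MMP3 only, 1 in air at 55 min, 1 in air at 2h25 min and 2 in pollen at 2h25 min.

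The collagenases MMP1 and MMP13, which open fibrillar collagen, and stromelysin 2, MMP10, gave intensities of 2.34 to 13.7, 1.79 to 5.38 and 1.75 to 10.6 over the arrays. The MMP1 probe is printed on 10 spots of the array, so its reading does not rest on 1 spot. These proteases were not well above background in air or with pollen at any time, and the arrays set no order among their values. The probes lie on hg19 at chr11:102660697-102660756 (MMP1), chr11:102706694-102706753 (MMP3), chr11:102641405-102641464 (MMP10) and chr11:102813773-102813832 (MMP13), all within the cluster of MMP genes on that chromosome. Those of the gelatinases lie at chr16:55540518-55540577 (MMP2) and chr20:44645121-44645180 (MMP9), that of MMP14 at chr14:23315791-23315850, and those of the inhibitors at chrX:47444666-47444725 (TIMP1), chr17:76849063-76849122 (TIMP2) and chr22:33258540-33258599 (TIMP3).

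The rest of the pathway was read from 4 lists. Other MMPs and inhibitors had 18 genes on the array, of which 9 were tested and 6 were above background on no array (MMP8, MMP12, MMP20, MMP26, MMP27 and A2M). None of the 9 was called between pollen and air at any time. Against 10 min, 8 of 9 fell at 6h50 min in air and 6 of 9 in pollen, with 0 higher in either, and medians of -0.55 and -0.49 beside -0.17 over all tested probes. The share of all tested probes that fell was 25.3% in air and 28.3% in pollen. These list counts were made under the reported scaling only. On air replicates 1 and 2 at 6h50 min, 13 and 10 of 336 array blocks had a median over 0.3 (log2) below arrays of other times. Such blocks numbered 0 on the 6h50 min pollen arrays and 2 on each of pollen replicates 1 and 2 at 10 min. The lists were not counted without these blocks. The 6h50 min arrays lay on a slide of their own, so time and slide cannot be told apart for them. The larger falls in air were RECK, a membrane-anchored inhibitor of MMPs (-0.92, limma adjusted p = 0.0165), MMP28 (-0.84) and MMP11 (-0.64). At 24 h, 3 of 9 fell in air and 5 of 9 in pollen, led in air by TIMP4 (-1.09, adjusted p = 1.71e-06), a further TIMP, and MMP28 (-0.98). Over all tested probes 20% fell in air and 19.5% in pollen at that time. All 24 h arrays lay on another slide than the 10 min arrays, and the lists were not counted with the slide as a block.

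Of 16 tested matrix substrates and matrix-building genes, 8 fell and 1 rose at 24 h in air, and 6 fell and 1 rose in pollen, with medians of -0.76 and -0.59 beside -0.06 and -0.07 over all tested probes. Over all tested probes 20% fell and 17.5% rose in air, and 19.5% fell and 15.8% rose in pollen. These 24 h counts, too, compare different slides and were not made with the slide as a block. With that block, calls over all probes at 24 h went from 12038 to 1766 in air and from 11342 to 933 in pollen. LOX, which cross-links collagen, changed by -1.88 in air and by -1.58 in pollen. The gene that rose was COL5A1, a chain of fibrillar collagen, at 1.05 (limma adjusted p = 1.81e-05) in air and 1.08 in pollen. At 6h50 min, 4 of 16 fell in air and 3 of 16 in pollen, no more than the 25.3% and 28.3% of all tested probes that fell, so these counts are no result about the list. LOX changed by -1.31 and -1.09 at that time.

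For the activators and the related ADAM proteases the counts at 24 h were small and not far from the shares over all tested probes, 17.5% higher and 20% lower in air and 15.8% and 19.5% in pollen, so nothing is read from them about the lists. Of 10 tested activators, 2 rose and 2 fell at 24 h in air, among them KLK6, a kallikrein protease (-1.92, limma adjusted p = 0.0188), FURIN, which cleaves the proenzyme of MMP14 (0.66, adjusted p = 0.000564), and PLAT, tissue plasminogen activator (-0.52). In pollen at 24 h, 1 rose (CTSL, 0.42) and 1 fell (KLK6, -1.62). The KLK6 probe was well above background on 3 of 3 arrays in each 10 min group and on 1 of 3 in each 24 h group. At 2h25 min in pollen PLAU, the urokinase that makes plasmin, rose by 0.61 (limma adjusted p = 0.0105). It was the 1 of 10 activators called there, beside 2.07% of all tested probes. In air 0 of 10 were called at that time. The 2h25 min arrays lay on other slides than the 10 min arrays. Of 10 tested ADAM and ADAMTS proteases, 2 rose and 2 fell at 24 h in air, and 3 rose and 2 fell in pollen. ADAMTS4, an aggrecanase, was among those that fell, but its probe was well above background on 0 of 3 arrays in air and on 1 of 3 in pollen at 24 h, so no size is given. ADAM8 rose by 0.76 in air and by 0.78 in pollen. The 24 h changes of this list and of the activators also compare different slides. No gene of the 4 lists was called between pollen and air at any time.

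Genes with the most similar course were sought over the 10 group means, among probes well above background on all 30 arrays. Among the first 3 for MMP2 was TIMP4 (Pearson r = 0.992). Nearest to MMP9 was LOXL2, a collagen cross-linking enzyme (r = 0.990), and to MMP14 ADAP2 (r = 0.988). For the inhibitors the nearest were AKAP12 to TIMP1 (r = 0.979), EIF5A2 to TIMP2 (r = 0.993) and GLS2 to TIMP3 (r = 0.963). The 10 points share their arrays and slides, and the genes were picked as the highest of many, so these values are a description.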

How the data were processed

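Total RNA of BEAS-2B cultures was labelled with Cy3 and hybridised to 30 one-colour Agilent arrays, 3 per exposure and time. The authors deposited spot intensities from Agilent Feature Extraction 11.0.1.1 (version per the submitters' processing notes), which per the file headers were background-subtracted and detrended inside each array and not scaled across arrays. A second file deposited by the authors holds log2 values, made with limma according to the methods. For 29 columns a comparison with the scanner intensities was possible. Column and array of the same name matched best in 23, and in 6, which are those of both 24 h groups, another array of that group did, so replicate numbers at 24 h follow the scanner files here. All columns have like quantiles, with medians between 5.77 and 5.8. Any background step behind them is not stated. These values served as an alternative. No measurement column was left without a condition.

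With R 4.3.3 and the data.table package, version 1.17.8, uneven and outlier spots were dropped, spots of a probe averaged, and log2 values taken relative to the 75th percentile of each array over the 33873 probes shared by both designs, of 58201 on the main design and 42405 on that of 1 array (pollen 55 min replicate 1). A probe was tested where some group had it well above background on each of its 3 arrays (32099 probes). limma 3.58.1 (lmFit, eBayes) fitted 10 group means to all 30 arrays. Calls needed a Benjamini-Hochberg adjusted p under 0.05 over all tested probes and a change of 1.1-fold or more, as in the methods. Intervals are 95% intervals from the same fit. The test was checked on simulated data. The number of arrays limits the precision.

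The genes, lists and settings were chosen with earlier results of these data known. Named genes are the 10 members, up to 3 called genes per list and comparison with the largest changes, and the 3 genes most like each member. Some genes that this rule names are not reported here. Where a gene had several probes the brighter stood for it. Pollen and air arrays with the same number deviated together at 10 min (r from 0.40 to 0.46), 2h25 min (0.49 to 0.64) and 24 h (0.30 to 0.75), though not for all numbers at 55 min (-0.07 to 0.40) and 6h50 min (-0.03 to 0.23). Motifs were searched as letters. Alternatives covered scaling, background correction, filters, weights, slides, pairing and arrays left out. Leaving out arrays for the lower bound of MMP3 was chosen after seeing the data.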

Additional observations from a re-analysis of the deposited data

How the results depend on the processing

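For pollen against air, and for the pollen effect at a later time against that at 10 min, the count of members called was 0 under every setting run. Differences that were not called changed sign in 74 of 541 alternative values for pollen against air and 62 of 578 for the later effect. For the changes over time they did so in 72 of 850, a total that includes values of called changes. The direction of a difference that was not called thus depended in part on the setting. A called value did not change sign in any setting. The replicate block changed no call between pollen and air. It raised the count at 6h50 min in air from 1 to 2, with MMP2 at -1.18 (adjusted p = 0.041), and changed no other call over time.

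The count at 6h50 min in air was 0 with the percentile over the array's own probes, 2 with normexp and quantile normalization, with array weights and in a fit of the compared arrays alone, and 3 with the deposited values. It ranged from 1 to 2 when an array was left out. In pollen at 6h50 min it was 0 with the own percentile and 2 with array weights and in a fit of the compared arrays alone, and 0 to 1 when an array was left out. At 2h25 min in pollen it was 1 with no filter on dim probes. The gene was MMP3, which the 10 min pollen arrays did not read above background. With no filter MMP13 was also called in pollen at 6h50 min (0.87, limma adjusted p = 0.0467). Its probe was well above background on 0 of 30 arrays. At 24 h in pollen the count was 2 with the slide as a block. TIMP1 in air at 6h50 min was -0.49 (adjusted p = 0.12) with the own percentile. The 24 h calls of MMP9 held in all settings run. Its change in air was -1.46 with normexp, whose offset of 50 compresses low intensities, and that of MMP2 was -0.82. MMP14 at 24 h missed the threshold with the own percentile (0.60 in air and 0.61 in pollen, adjusted p = 0.10 in both). MMP2 at 24 h in pollen did so in a fit of the compared arrays alone (-1.74, adjusted p = 0.063), and TIMP2 at 24 h in air with normexp (0.30, adjusted p = 0.084) and the deposited values (0.29, adjusted p = 0.060). The cause of these shifts was not tested.

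Over all tested probes the counts depended more on the setting. Against 1, 11, 14 and 1 probes called between pollen and air at 55 min, 2h25 min, 6h50 min and 24 h, settings gave 0 to 231, 0 to 44, 0 to 530 and 0 to 107. At 24 h against 10 min they gave 1766 to 16981 in air (12038 as reported) and 933 to 12090 in pollen (11342), the lowest with the slide as a block. At 6h50 min they gave 5571 to 14789 in air (12322) and 6935 to 16408 in pollen (13761). At 55 min they ran from 0 to 2914 in air (60) and 1 to 1327 in pollen (270), and at 2h25 min from 0 to 609 (55) and 6 to 1320 (663). Calls at 6h50 min against 10 min could not be fitted with the slide as a block.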
